A study of Mus musculus with 15 samples.

Results

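The uterus 24 h after estradiol was set against the uterus 2 h after estradiol, with 3 arrays at each time chosen by their titles, which is 6 of the 15 arrays in the study. Gene expression was measured on one-colour Agilent mouse arrays from total RNA of whole uteri, taken from mice of the outbred CD-1 strain that had been ovariectomized and so had lost their own ovarian oestrogen. The E2 24 h group and the E2 2 h group each received 250 ng of E2 in 100 µl of saline, and uteri were collected 24 h or 2 h later. Mice of the vehicle group received 100 µl of saline, and the sources used here give no collection time for them. Groups E3 24 h and E3 2 h, also of 3 arrays each, received 250 ng of E3 in the same way and serve here for 1 comparison of the time difference. The abbreviations E2 and E3 are taken to stand for estradiol and estriol. The labels do not say whether the arrays of a group came from separate animals, so p-values cover only the spread among these arrays, part of which may be technical.

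Estradiol acts in the uterus mainly through oestrogen receptor alpha, a nuclear receptor that is present in the epithelium, stroma and muscle. A single dose is known to act in phases. An early phase of rapid transcription, water uptake and altered blood flow is followed by a late phase in which epithelial cells copy their DNA and divide, and the tissue builds protein, membrane and matrix. The comparison of 24 h with 2 h sets the late phase directly against the early one, and the vehicle arrays show on which side of the untreated level each gene lay.

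Values are log2 levels: the log2 of the processed spot signal minus the 75th percentile of that array, so 0 is the level of a probe at that percentile and a difference of 1 is 2-fold. The 75th percentile was 1254, 1338 and 1506 signal units on the E2 24 h arrays and 1523, 1717 and 1728 on the E2 2 h arrays. Of all probes, 68.6% to 76.1% were well above background on the E2 24 h arrays and 73.3% to 79.6% on the E2 2 h arrays. Arrays of the same group correlated at 0.986 to 0.988 at 24 h and at 0.986 to 0.992 at 2 h, and the median SD of a probe over 3 arrays was 0.201 and 0.162 on the log2 scale. The number of arrays limits the precision of every value. Errors after a difference are standard errors from limma, which pooled the spread over all 5 groups, and adjusted p-values are Benjamini-Hochberg values over the 30202 probes tested. A gene is said to have risen or fallen at 24 h where its adjusted p was under 0.05.

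Most probes differed between the times. Of 30202 probes tested, 15983 (52.9%) were called, with 8276 higher at 24 h (27.4%) and 7707 lower (25.5%). With 1 probe for each of 19884 gene names, 5999 (30.2%) were higher and 4548 (22.9%) lower. These shares are the background against which every list of genes is to be read. Of the calls, 3451 (11.4%) were higher and 3698 (12.2%) lower by 2-fold or more. The largest changes were mostly falls: 29 called probes rose by more than 4 on the log2 scale and 81 fell by as much. Detection on every array of one time and on none of the other held for 68 probes on the E2 24 h side and for 518 on the E2 2 h side. Detection is set on each array before scaling, and 68.6% to 76.1% of probes passed it at 24 h against 73.3% to 79.6% at 2 h. Without regard to the test, the 3 arrays of one time lay wholly apart from those of the other for 62.9% of probes.

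**Figure D1:**
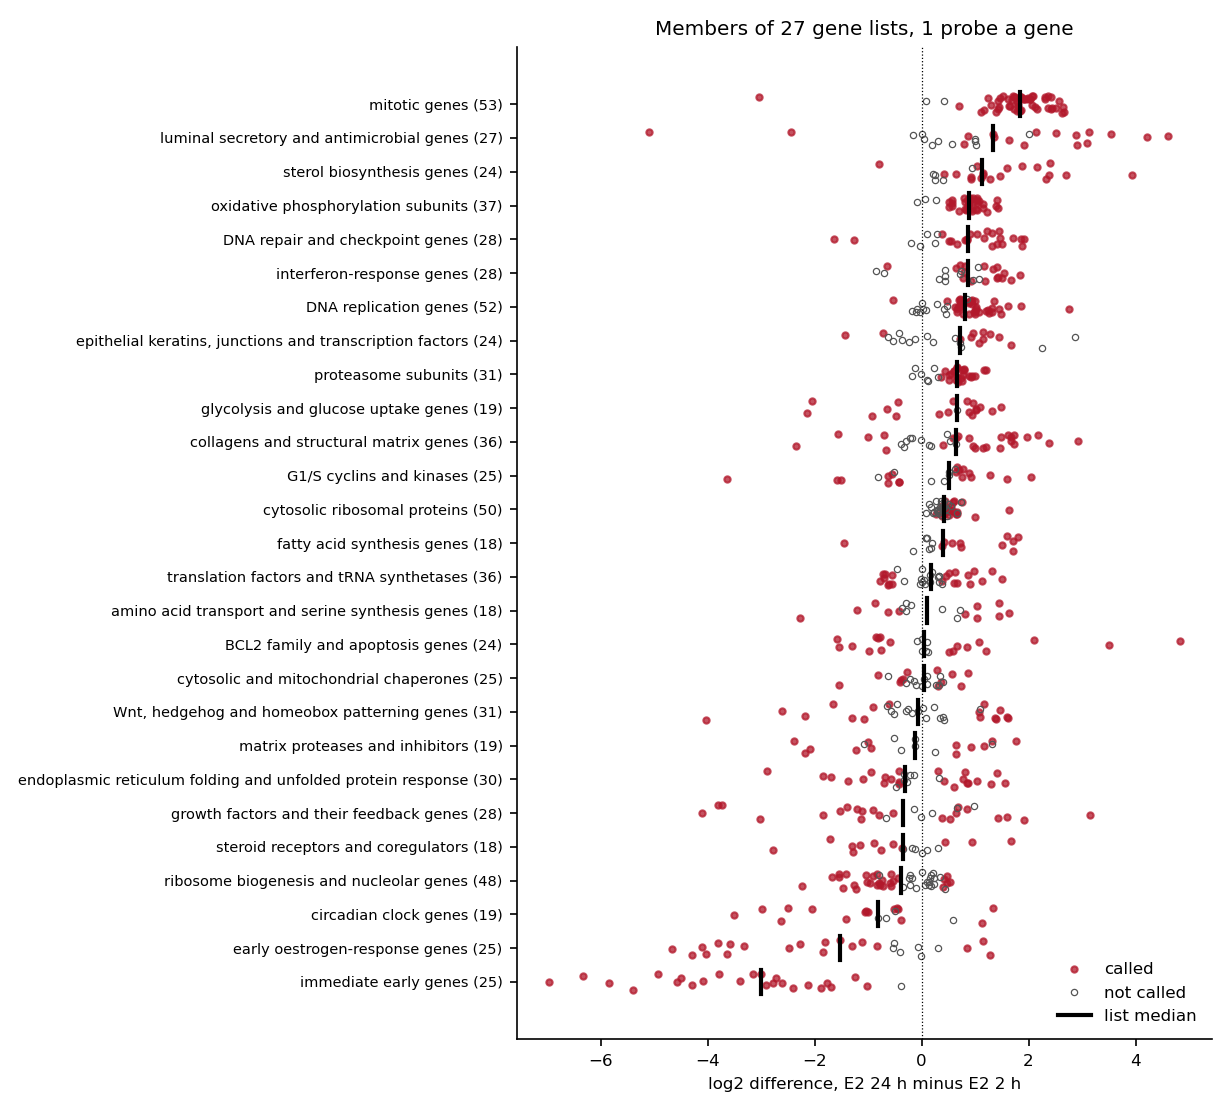
Log2 difference, E2 24 h minus E2 2 h, for the members of 27 gene lists, 1 point a gene and 1 row a list, ordered by the list median (black bar). Red points were called at an adjusted p under 0.05 and open points were not. Immediate early genes lie furthest to the left with a median of -3.0, and mitotic genes furthest to the right with a median of 1.84.

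The 12 largest falls included the immediate early genes Arc, Egr3 and Fos, together with genes of other kinds. Egr4, an EGR family zinc finger factor (probe at chr6:85540804-85540863, mm7), had levels of -7.32, -8.66 and -9.34 on the E2 24 h arrays, 0.41, 0.44 and -0.07 on the E2 2 h arrays, and -5.71, -5.13 and -5.66 on the vehicle arrays. The times did not overlap, and at 24 h the probe was not well above background on any array. For such probes the fold is a bound: the bright group's mean is set against a dim-group mean in which each array counts with its lowest level among probes well above background, or with the probe's own level where that is higher. Such a bound is read from means of the processed signal. It takes no account of the spread among arrays or of other background corrections, which can give smaller folds. By this bound Egr4 was at least 138.5-fold lower at 24 h (adjusted p = 4.9e-08). Arc, which encodes an activity-regulated cytoskeletal protein (chr15:74749717-74749776), stood at -3.56, -3.69 and -4.14 at E2 24 h, 3.24, 3.29 and 2.99 at E2 2 h, and -3.12, -3.01 and -2.94 with vehicle. It fell by 6.97 ± 0.31, 125.4-fold, with an adjusted p of 2.2e-08. All 3 arrays at 24 h were below the vehicle arrays, and all 3 at 2 h were far above them. Since every sample is whole uterus, fewer cells of a type and less RNA per cell cannot be told apart here or in any result that follows.

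Gdf15, a stress-responsive ligand of the TGF-beta superfamily, stood at -1.49, -1.63 and -1.99 at E2 24 h, 4.80, 4.84 and 4.78 at E2 2 h, and -2.66, -2.76 and -1.83 with vehicle, a fall of 6.51 (adjusted p = 3.7e-08). Its 2 h arrays lay close together and far above both other groups. Trim15, a tripartite motif protein, fell by 7.77 ± 1.05 (adjusted p = 6.4e-05), although 1 of its 3 arrays at 24 h was well above background. Myh7, a cardiac and slow muscle myosin heavy chain, was at least 108.8-fold lower at 24 h, since its probe was not well above background on any 24 h array (adjusted p = 2e-05). Its near-identical relative Myh6 may share signal with that probe. Rem2, a small GTPase, fell by 5.59, Csrnp3, a nuclear factor, by 6.23, and Dok7, an adaptor of the muscle receptor MuSK, by 5.93. The potassium channel subunit Kcnf1 fell by 5.63, with 1 of its 3 arrays at 24 h well above background. The receptor Gpr83 was at least 16.6-fold lower. For Csrnp3, other probes gave -3.18 and -3.47, for Dok7 -5.01 and for Gpr83 -4.79, so direction held while size varied with the probe.

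Genes that rose furthest included epithelial transport and barrier genes. Trpv6, an epithelial calcium channel (chr6:41552038-41552097), had levels of 2.34, 1.73 and 2.60 at E2 24 h, -2.43, -3.28 and -2.64 at E2 2 h, and -0.56, -0.51 and 0.09 with vehicle. It rose by 5.0 ± 0.61, 32.1-fold, with an adjusted p of 2.9e-05. The vehicle arrays lay between the times, so the time difference spans a level under vehicle at 2 h and one over it at 24 h. Rnf186, a RING finger ubiquitin ligase of epithelia (chr4:138346565-138346624), showed the same order, with -0.21, -0.51 and -0.11 at E2 24 h, -5.96, -6.87 and -6.78 at E2 2 h, and -2.93, -2.98 and -2.81 with vehicle. It rose by 6.26 ± 0.63 (adjusted p = 7.9e-06). Serpinb5, the serpin maspin, rose by 4.69 ± 0.63 (adjusted p = 6.3e-05), and its vehicle levels also lay above those at 2 h. Ankrd22, which encodes an ankyrin repeat protein, rose by 5.35 ± 0.42 (adjusted p = 1.3e-06), with 1 of its 3 arrays at 2 h well above background.

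Atp13a4, a P5-type ATPase, was at least 7.80-fold higher at 24 h (adjusted p = 1.9e-05), as it was not well above background on the 2 h arrays. Naip1, a NLR family sensor with close paralogs that may share signal, was at least 15.1-fold higher (adjusted p = 0.0039). Pabpc4l, a poly(A)-binding protein relative, was at least 7.88-fold higher (adjusted p = 3.6e-06), although its vehicle levels of -4.74, -5.24 and -4.75 were close to those at 24 h of -4.38, -4.21 and -4.59. Etnppl, a phospholyase of phosphoethanolamine, rose by 4.84 (adjusted p = 0.0048). Aldh1l2, a mitochondrial folate enzyme, rose by 4.69 (adjusted p = 0.00012). Etnppl and Aldh1l2 were each well above background on 1 of the 3 arrays at 2 h. The rise of Gin1, a retroelement-derived integrase-like gene, was 4.60 with 1 probe and 1.09 with another. Pnlip, pancreatic lipase, had a bound of 72.6-fold higher on the processed signal. Its 24 h levels were 0.67, -1.52 and -2.72 and its 2 h levels -9.62, -9.30 and -9.59. It was not well above background at 2 h. Its adjusted p was 0.048, another probe gave 4.96 with an adjusted p of 0.2, normexp background correction gave 3.73 with an adjusted p of 0.21, and the adjusted p lay between 0.066 and 0.13 when any 1 of the 6 arrays was left out.

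**Figure D2:**
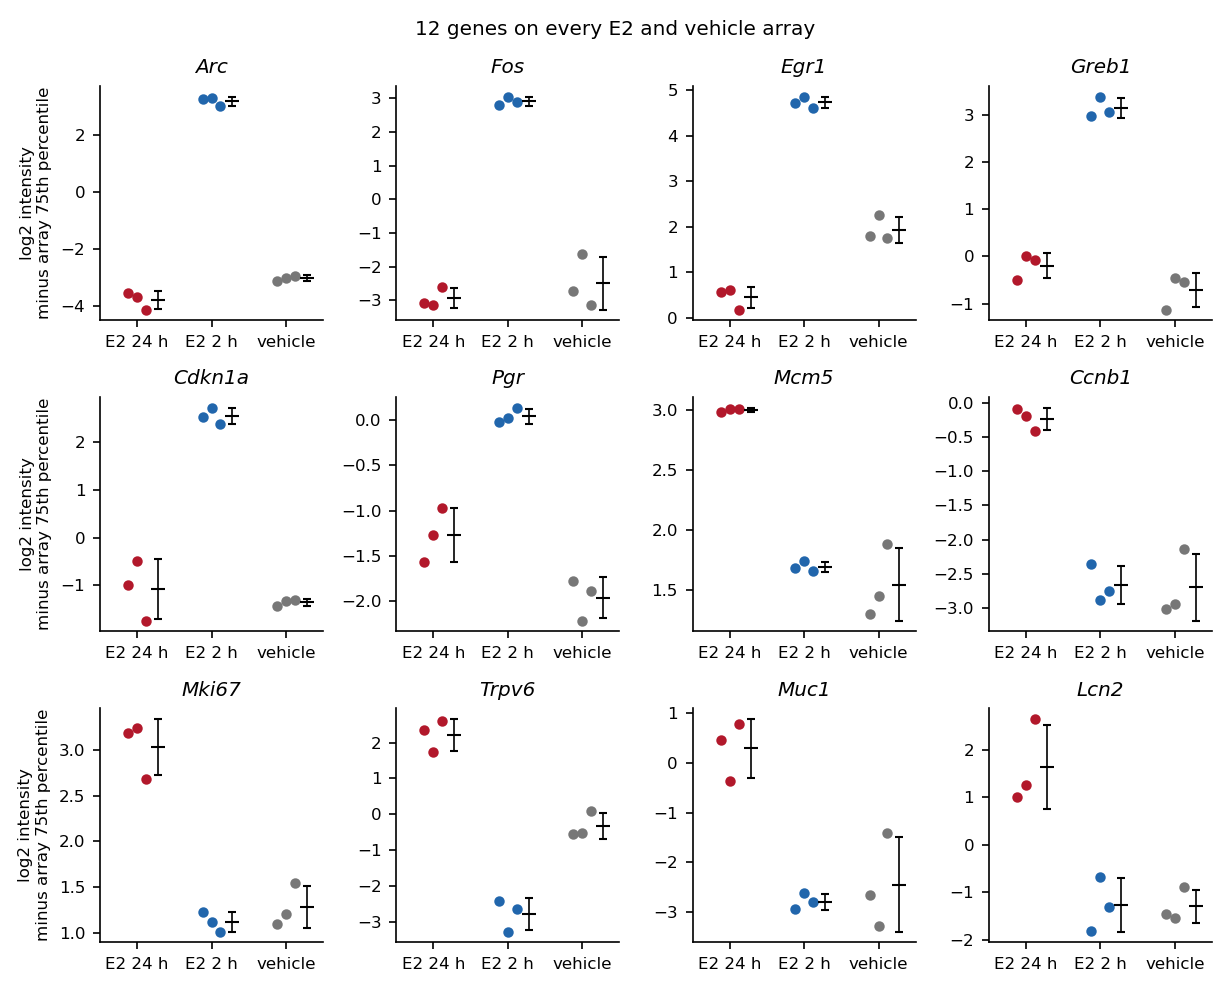
Log2 level (log2 processed signal minus the array's 75th percentile) of 12 genes on each array, with the mean ± SD of 3 arrays. In each panel the groups run from E2 24 h through E2 2 h to vehicle. Arc, Fos, Egr1, Greb1 and Cdkn1a are high on the 2 h arrays alone, while Mcm5, Ccnb1, Mki67, Trpv6 and Muc1 are high on the 24 h arrays alone.

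Immediate early genes, whose transcription needs no new protein, fell nearly as a block. Of 25 tested, 24 fell and 0 rose, and all 24 fell by 2-fold or more. Their median difference was -3.0, against 0.10 over all genes. Their mean level was -0.26 to -0.18 on the E2 24 h arrays, 3.09 to 3.19 on the E2 2 h arrays and 0.30 to 0.52 on the vehicle arrays. At 24 h these genes therefore lay under the vehicle level as well as under the 2 h level. The median difference from vehicle was -0.44 at 24 h and 2.80 at 2 h; these use the same vehicle arrays.

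Fos, an AP-1 subunit (chr12:83478431-83478490), stood at -3.07, -3.13 and -2.60 at E2 24 h, 2.80, 3.05 and 2.88 at E2 2 h, and -2.72, -1.61 and -3.14 with vehicle. The 24 h and vehicle arrays overlapped, and the time difference was -5.84 ± 0.41 (57.4-fold, adjusted p = 6.4e-07). For Egr1, a zinc finger factor, levels were 0.56, 0.61 and 0.18 at E2 24 h, 4.73, 4.86 and 4.61 at E2 2 h, and 1.79, 2.27 and 1.76 with vehicle. It fell by 4.29 (adjusted p = 3.2e-08) to a level under all 3 vehicle arrays. Egr3, a relative of Egr1, fell by 6.33 with 1 probe and by 2.54 with another. Fosl1, another AP-1 subunit, fell by 5.40. Myc, the growth-promoting bHLH factor and the member that was not called, had a difference of -0.39 (adjusted p = 0.24), with levels of 0.93, 1.26 and 1.61 at E2 24 h and 1.72, 1.47 and 1.79 at E2 2 h.

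Serum response factor binds the CArG box and CREB family factors bind the cyclic AMP response element (CRE), and these sites are known from promoters of immediate early genes. RefSeq promoters (GRCm38.p6, 250 bases before to 50 after the start) were found for 19 of the 26 listed genes. A CArG box lay in 5 of their 25 promoters (20.0%, from 2 genes), against 1.63% of all 32841 mouse promoters of the same length. The CRE letters TGACGTCA, searched on both strands, lay in 3 of 25 (12%), against 1.79%. The promoters of Egr2 (chr10:67537316-67537615, plus strand) and Maff (chr15:79347270-79347569, plus strand) are shown as examples of each, with the site in capitals. The CArG box of Egr2 starts 72 bases before the gene start and the CRE of Maff 29 bases before it.
Egr2: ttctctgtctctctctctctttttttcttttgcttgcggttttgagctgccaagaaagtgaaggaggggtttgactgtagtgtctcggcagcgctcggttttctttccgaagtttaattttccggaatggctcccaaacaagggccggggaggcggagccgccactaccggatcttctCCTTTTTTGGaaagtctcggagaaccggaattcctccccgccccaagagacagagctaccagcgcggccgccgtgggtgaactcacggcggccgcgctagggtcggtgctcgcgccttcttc
Maff: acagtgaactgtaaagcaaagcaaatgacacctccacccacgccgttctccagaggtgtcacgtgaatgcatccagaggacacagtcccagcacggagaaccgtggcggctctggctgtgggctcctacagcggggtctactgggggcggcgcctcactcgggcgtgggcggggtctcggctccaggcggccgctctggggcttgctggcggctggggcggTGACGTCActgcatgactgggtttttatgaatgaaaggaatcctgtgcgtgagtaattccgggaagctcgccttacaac
Egr2, a zinc finger factor, had levels of -1.15, -1.14 and -1.51 at E2 24 h, 1.44, 1.22 and 1.37 at E2 2 h, and -0.04, 0.11 and -0.08 with vehicle. It fell by 2.61 ± 0.24 (adjusted p = 3.6e-06). Maff, a small Maf bZIP factor, fell by 4.50 ± 0.22 (adjusted p = 3.7e-08), with levels of -1.18, -1.62 and -1.74 at E2 24 h against 2.73, 2.88 and 3.36 at E2 2 h. Both were lower at 24 h than on every vehicle array.

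Genes known as early targets of oestrogen in the uterus mostly fell too. Of 25 tested, 16 fell and 3 rose, with a median of -1.53, and medians from vehicle of -0.38 at 24 h and 1.46 at 2 h. Greb1, a coregulator of the oestrogen receptor, stood at -0.50, 0.00 and -0.08 at E2 24 h, 2.98, 3.38 and 3.05 at E2 2 h, and -1.13, -0.46 and -0.54 with vehicle. It fell by 3.33 ± 0.47 (10.1-fold, adjusted p = 9.1e-05), and the 24 h arrays overlapped those of vehicle. Cdkn1a, which encodes the cyclin-dependent kinase inhibitor p21, stood at -1.0, -0.49 and -1.74 at E2 24 h, 2.54, 2.73 and 2.39 at E2 2 h, and -1.44, -1.32 and -1.31 with vehicle. Its fall was 3.63 ± 0.34 (adjusted p = 4.4e-06), again with overlap of the 24 h and vehicle arrays. Inhbb, the activin B subunit, fell by 4.66 ± 0.80, Gadd45g, a growth arrest gene, by 4.29, and Socs3, a feedback inhibitor of cytokine signalling, by 4.11. The members that rose were Krt19, a simple epithelial keratin (1.28), Id2, an inhibitor of bHLH factors (1.15), and Txnip, a regulator of thioredoxin and glucose uptake (0.85). Another probe of Txnip gave 0.81 and missed the call (adjusted p = 0.098). Id2 and Txnip were lower than vehicle at both times, with differences from vehicle of -0.43 and -1.10 at 24 h and of -1.58 and -1.95 at 2 h. No promoter of this list (0 of 23) held the full oestrogen response element, which 0.07% of all promoters hold.

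Steroid receptors and their coregulators had 9 falls and 3 rises among 18 tested, with a median of -0.36. Esr1, oestrogen receptor alpha, stood at 2.24, 2.33 and 2.36 at E2 24 h, 2.78, 2.87 and 2.87 at E2 2 h, and 2.91, 3.00 and 2.95 with vehicle. The times did not overlap and the fall was 0.53 ± 0.11 (adjusted p = 0.0014), but a second probe of Esr1 gave -0.03. Pgr, the progesterone receptor and a textbook oestrogen target, stood at -1.57, -1.27 and -0.97 at E2 24 h, -0.02, 0.02 and 0.14 at E2 2 h, and -1.78, -2.22 and -1.89 with vehicle. It fell by 1.31 ± 0.33 (adjusted p = 0.0048), its 24 h arrays stayed above those of vehicle, and another probe gave -3.19. Nrip1, the corepressor RIP140, fell by 2.77, and Rara, a retinoic acid receptor, by 1.72. Gper1, a membrane oestrogen receptor, rose by 1.67, with 24 h levels of -0.13, -0.13 and -0.41, 2 h levels of -1.52, -2.21 and -1.93 and vehicle levels of 0.32, -0.03 and 0.41. Leaving out E2 24 h replicate 2, E2 2 h replicate 2 or E2 2 h replicate 3 left 1 rise in this list.

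Growth factor ligands, receptors and feedback genes went both ways, with 13 falls and 9 rises among 28 tested (median -0.34). Errfi1, a feedback inhibitor of EGF receptors, fell by 4.11, Hbegf, a ligand of those receptors, by 3.81, and Spry4, a Sprouty inhibitor of growth factor signalling, by 3.74. Hbegf levels were -0.13, -0.16 and -0.04 at E2 24 h, 3.45, 3.78 and 3.87 at E2 2 h, and 0.76, 0.63 and 0.80 with vehicle, so its 24 h arrays lay below both other groups. Hgf, hepatocyte growth factor from the stroma, rose by 3.14 ± 0.31 (adjusted p = 6.4e-06). Its levels of -0.52, -0.30 and -0.85 at E2 24 h were under those of vehicle (0.20, 0.12 and 0.20), and the 2 h levels of -3.41, -3.90 and -3.79 were far under both. The EGF receptor relative Erbb3 rose by 1.91, and the stromal ligand Fgf7 by 1.60. For Igf1, a growth factor of the stroma, the difference was -0.02 (adjusted p = 0.95), with levels of 2.59, 2.82 and 2.51 at E2 24 h, 2.66, 2.56 and 2.76 at E2 2 h, and 1.24, 1.83 and 1.44 with vehicle. Both times lay above vehicle, and other Igf1 probes gave -3.01 (adjusted p = 1.5e-07) and -0.20, so probes of this gene disagreed.

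Cell cycle genes were read by phase. G1/S cyclins, kinases and their regulators had 10 rises and 8 falls among 25 (median 0.51), and 5 falls without E2 24 h replicate 1. E2f2 and E2f1, factors that drive S phase genes, rose by 2.04 and 1.60, and Cks1b, a kinase subunit, by 1.28. Ccne1, cyclin E1, rose by 0.65 (adjusted p = 0.0099). Ccnd2, cyclin D2, fell by 1.58, and Cdkn1c, the inhibitor p57, by 1.5. The fall of Ccnd1, cyclin D1, was 0.43 (adjusted p = 0.043), and its adjusted p lay between 0.06 and 0.14 without E2 2 h replicate 2 or 3 or any one of the E2 24 h replicates.

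DNA replication genes, from origin licensing to nucleotide supply, had 39 rises and 1 fall among 52 (median 0.81). Their mean level was 1.40 to 1.48 at E2 24 h, 0.61 to 0.68 at E2 2 h and 0.50 to 0.68 with vehicle, so the 24 h arrays stood clear of both other groups, which overlapped. Mcm5, a subunit of the replicative helicase (chr8:73669372-73669432), had 2.98, 3.01 and 3.01 at E2 24 h, 1.68, 1.74 and 1.66 at E2 2 h, and 1.30, 1.45 and 1.88 with vehicle. It rose by 1.31 ± 0.15 (adjusted p = 1.6e-05). Tk1, thymidine kinase, had 2.06, 2.41 and 1.87 at E2 24 h, -0.45, -0.84 and -0.64 at E2 2 h, and -0.70, -0.41 and 0.00 with vehicle, a rise of 2.75 ± 0.26 (adjusted p = 5.5e-06). Gmnn, the licensing inhibitor geminin, rose by 1.85 and Mcm10, a replication initiation factor, by 1.61. Orc2, an origin recognition subunit, was the member that fell (-0.54). Pcna, the sliding clamp, had 3.94, 3.86 and 3.99 at E2 24 h, 3.97, 3.87 and 3.96 at E2 2 h, and 3.30, 3.19 and 3.25 with vehicle. Its times overlapped, with a difference of 0.00 (adjusted p = 0.99), while both times lay above every vehicle array.

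E2F factors bind a short GC-rich site in promoters of S phase genes. The letters TTTCCCGC, TTTGGCGC, TTTCGCGC or TTTGCCGC, on either strand, lay in 17 of 51 promoters of the replication list (33.3%, with promoters for 42 of its 52 genes), against 2.27% of all mouse promoters. Overlapping matches in a promoter were counted once. The promoter of Mcm5 (chr8:75109259-75109558, GRCm38.p6, plus strand) is printed because it holds a pair of overlapping matches, in capitals, the nearer 149 bases before the start.
Mcm5: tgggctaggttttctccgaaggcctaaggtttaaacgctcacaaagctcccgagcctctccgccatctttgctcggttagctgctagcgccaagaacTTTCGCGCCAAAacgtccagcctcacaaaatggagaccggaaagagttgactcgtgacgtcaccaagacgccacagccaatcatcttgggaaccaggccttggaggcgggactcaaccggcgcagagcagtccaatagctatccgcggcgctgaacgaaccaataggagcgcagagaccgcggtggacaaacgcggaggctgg
Its rise at 24 h is described in the paragraph before.

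Mitotic genes rose almost without exception. Of 53 tested, 50 rose, 49 of them by 2-fold or more, and 1 fell (median 1.84). Mean levels were 0.45 to 0.67 at E2 24 h, -1.24 to -1.07 at E2 2 h and -1.42 to -0.98 with vehicle. The median difference from vehicle was 1.84 at 24 h and 0.02 at 2 h. Ccnb1, cyclin B1 (chr13:97885282-97885341), had -0.09, -0.20 and -0.41 at E2 24 h, -2.35, -2.88 and -2.75 at E2 2 h, and -3.02, -2.94 and -2.14 with vehicle. It rose by 2.43 ± 0.33 (5.37-fold, adjusted p = 7.4e-05). Mki67, the proliferation marker Ki-67, had 3.19, 3.24 and 2.68 at E2 24 h, 1.23, 1.12 and 1.01 at E2 2 h, and 1.10, 1.20 and 1.54 with vehicle, a rise of 1.92 ± 0.26 (adjusted p = 6.4e-05). In both genes the 2 h and vehicle arrays overlapped and the 24 h arrays stood above all of them. Cdc25c, the phosphatase that activates the mitotic kinase, rose by 2.67, and Kif2c, a kinesin that corrects kinetochore attachments, by 2.63.

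The exception was Mad2l1, the spindle checkpoint protein MAD2. It had -0.03, -0.11 and 0.19 at E2 24 h, 3.18, 3.20 and 2.81 at E2 2 h, and -1.32, -1.23 and -1.50 with vehicle, a fall of 3.04 ± 0.24 (adjusted p = 1.5e-06). Its 24 h arrays lay above vehicle, but the 2 h arrays were far above both. A second probe gave -2.99, so the pattern did not rest on a single probe.

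The CHR element and the CCAAT box are known from promoters of genes expressed in G2 and mitosis. Promoters were found for 44 of the 54 genes of the mitotic list. The CHR letters TTTGAA or TTCGAA lay in 36 of their 47 promoters (76.6%, from 33 genes), against 19.2% of all promoters. CCAAT also lay in 36 of 47 (76.6%, from 33 genes), against 37.4%. Both were searched on either strand. The promoter of Ncapg (chr5:45669675-45669974, GRCm38.p6, plus strand) shows a CHR element 30 bases before the start. That of Ccnb2 (chr9:70421505-70421804, minus strand) shows 3 CCAAT boxes, the nearest 21 bases before the start. Capitals mark only the motif named for each promoter. In lower case, Ncapg also holds a CCAAT box on the other strand, 176 bases before the start, and Ccnb2 also holds CHR letters.
Ncapg: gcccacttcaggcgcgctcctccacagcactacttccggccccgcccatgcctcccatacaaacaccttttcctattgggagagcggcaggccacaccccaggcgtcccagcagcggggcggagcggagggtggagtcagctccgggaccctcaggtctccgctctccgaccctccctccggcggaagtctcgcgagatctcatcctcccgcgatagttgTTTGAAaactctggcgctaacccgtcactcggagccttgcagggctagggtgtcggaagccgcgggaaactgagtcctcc
Ccnb2: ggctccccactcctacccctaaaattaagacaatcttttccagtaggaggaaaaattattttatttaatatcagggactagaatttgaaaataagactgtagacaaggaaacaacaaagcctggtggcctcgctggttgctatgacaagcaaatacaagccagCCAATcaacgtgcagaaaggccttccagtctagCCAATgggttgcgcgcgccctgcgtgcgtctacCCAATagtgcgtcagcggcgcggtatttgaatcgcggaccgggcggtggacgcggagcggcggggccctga
Ncapg, a condensin subunit, had 2.50, 1.52 and 1.11 at E2 24 h, -0.77, -1.11 and -0.89 at E2 2 h, and -1.08, -1.03 and -0.45 with vehicle, a rise of 2.64 ± 0.50 (adjusted p = 0.00072). Ccnb2, cyclin B2, had 3.35, 3.55 and 3.28 at E2 24 h, 0.98, 0.67 and 0.82 at E2 2 h, and 0.72, 0.93 and 1.55 with vehicle, a rise of 2.57 ± 0.29 (adjusted p = 1.9e-05). Neither gene's 24 h arrays overlapped any other group. A promoter match describes these letters and shows no binding.

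DNA repair and checkpoint genes had 21 rises and 2 falls among 28 (median 0.87). Fanci and Fancd2, partners in the repair of DNA crosslinks, rose by 1.91 and 1.87, and Fancb, another Fanconi anaemia gene, by 1.85. The falls were Rad18 (-1.63), a ubiquitin ligase of damage tolerance, and Wee1 (-1.26), the kinase that delays mitosis. Rad18 had -1.93, -1.84 and -1.51 at E2 24 h, 0.19, -0.25 and -0.32 at E2 2 h, and -2.10, -1.69 and -1.82 with vehicle, so its 24 h arrays overlapped vehicle and the 2 h arrays lay above.

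**Figure D3:**
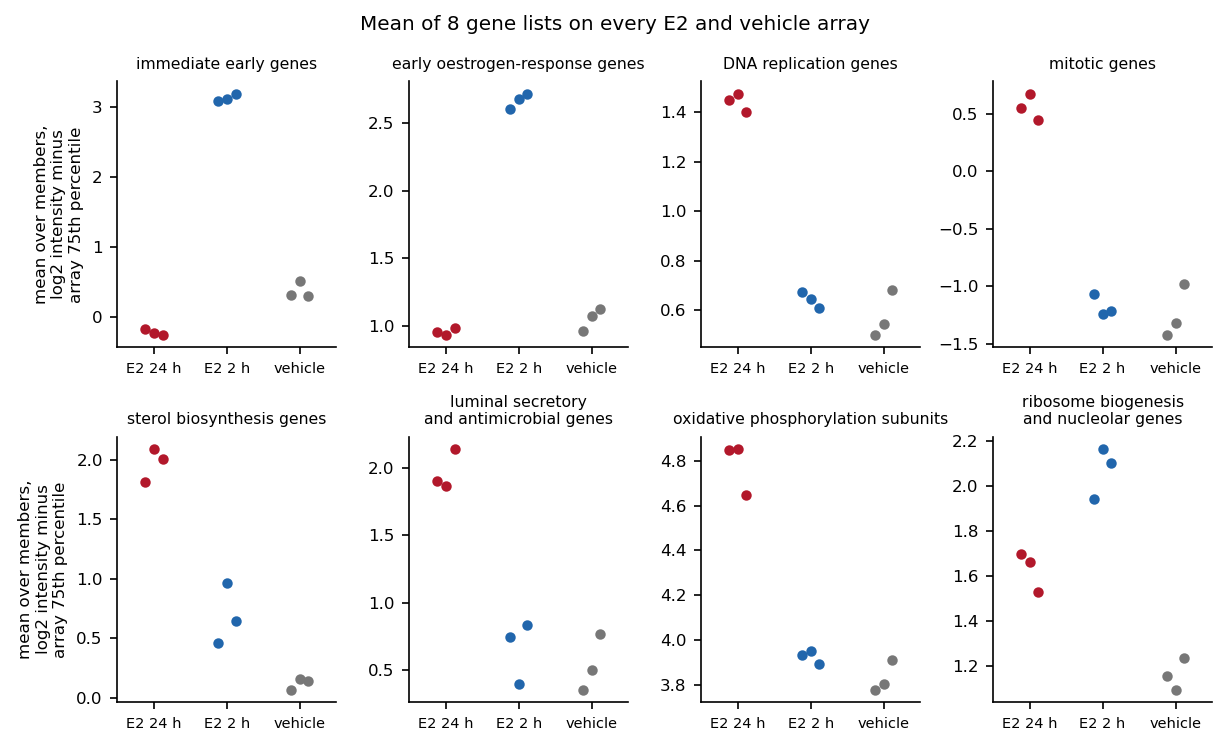
Mean log2 level over the tested members of 8 gene lists on each array of E2 24 h, E2 2 h and vehicle. Immediate early and early oestrogen-response genes are highest on the 2 h arrays; DNA replication, mitotic, sterol, oxidative phosphorylation and luminal secretory genes on the 24 h arrays. Ribosome biogenesis genes lie above vehicle at both times and higher at 2 h.

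Sterol biosynthesis genes had 18 rises and 1 fall among 24 (median 1.12), with mean levels of 1.81 to 2.09 at E2 24 h, 0.46 to 0.97 at E2 2 h and 0.06 to 0.16 with vehicle. Mvk, mevalonate kinase, had 1.43, 1.65 and 1.30 at E2 24 h, -1.15, -1.12 and -1.46 at E2 2 h, and -0.90, -0.64 and -0.45 with vehicle. It rose by 2.70 ± 0.16 (adjusted p = 1.9e-07), and its 2 h arrays lay below vehicle. Fdps, farnesyl diphosphate synthase, rose by 2.40, while another probe gave 0.83 and missed the call (adjusted p = 0.08). The sterol regulatory element TCACNCCAC was found in 1 of 19 promoters of this list (5.26%), against 1.24% of all.

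Fatty acid synthesis genes had 10 rises and 1 fall among 18 (median 0.40), with 6 rises without E2 24 h replicate 2, E2 2 h replicate 1 or E2 2 h replicate 3. Me1, malic enzyme, rose by 1.80, and Fads2, a fatty acid desaturase, by 1.70, while Agpat2, an acyltransferase, fell by 1.46. Another probe of Me1 gave 1.54 and missed the call (adjusted p = 0.081). Subunits of oxidative phosphorylation had 34 rises and 0 falls among 37 (median 0.88), with mean levels of 4.65 to 4.85 at E2 24 h, 3.89 to 3.95 at E2 2 h and 3.77 to 3.91 with vehicle. Ndufa4, a respiratory chain subunit, rose by 1.40 ± 0.09 (adjusted p = 3.4e-07), with 5.55, 5.51 and 5.37 at E2 24 h against 4.03, 4.08 and 4.11 at E2 2 h. Atp5g1, a subunit of ATP synthase, rose by 1.41, and Cox7b, of cytochrome oxidase, by 1.43. The 3 arrays of each time lay wholly apart in 35 of the 37 genes, against 12507 of 19884 over all genes.

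Glycolysis and glucose uptake genes had 12 rises and 6 falls among 19 (median 0.66). The glycolytic enzymes Tpi1, Pgk1 and Pkm rose by 1.49, 1.31 and 1.09. The glucose transporter Slc2a3 fell by 2.14, hexokinase Hk2 by 2.05, and Pfkfb3, which makes an activator of glycolysis, by 0.92. Another probe of Slc2a3 gave -1.0 and missed the call (adjusted p = 0.088). Other probes of Pfkfb3 gave -0.75 (adjusted p = 0.089) and -0.7 (adjusted p = 0.066), also short of a call. Hk2 had 0.53, 0.30 and 0.45 at E2 24 h, 2.05, 2.61 and 2.77 at E2 2 h, and 0.39, 0.63 and 0.55 with vehicle, so only the 2 h arrays stood apart. Amino acid genes had 6 rises and 5 falls among 18 (median 0.10), near the shares over all genes (30.2% higher and 22.9% lower). The serine synthesis enzymes Psat1, Phgdh and Shmt2 rose by 1.63, 1.44 and 1.44, while the transporters Slc7a5, Slc38a1 and Slc7a1 fell by 2.28, 1.21 and 0.88. Proteasome subunits had 24 rises and 0 falls among 31 (median 0.66), led by Psmd13 (1.21), Psmb3 (1.17) and Psmd14 (1.00).

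Ribosome biogenesis genes had 23 falls and 5 rises among 48 (median -0.39), with mean levels of 1.53 to 1.70 at E2 24 h, 1.94 to 2.17 at E2 2 h and 1.09 to 1.24 with vehicle. Both times were thus above vehicle, with median differences from it of 0.46 at 24 h and 0.79 at 2 h. Rrs1, an assembly factor of the large subunit, had 0.47, 0.28 and 0.54 at E2 24 h, 2.30, 2.85 and 2.83 at E2 2 h, and 0.26, 0.35 and 0.19 with vehicle, a fall of 2.23 ± 0.27 (adjusted p = 2.6e-05). Nolc1 and Gnl3, nucleolar proteins, fell by 1.68 and 1.55. Polr1c, a subunit of RNA polymerases I and III, rose by 0.54. The number of rises was 2 or 3 on leaving out any E2 2 h replicate or E2 24 h replicate 1 or 2. Cytosolic ribosomal proteins had 23 rises and 0 falls among 50 (median 0.41), but this depended on the scale, with 4 rises, 1 fall and a median of -0.01 after quantile normalization. It also depended on single arrays: 13 and 11 rose without E2 24 h replicate 1 or 2, and 14 rose without E2 2 h replicate 2 or 3.

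Translation factors and tRNA synthetases had 12 rises and 8 falls among 36 (median 0.18), near the shares over all genes (30.2% higher and 22.9% lower). Eif4ebp1, an inhibitor of cap-dependent translation, rose by 1.5 and the synthetase gene Qars by 1.31. For Qars, other probes gave 1.40 (adjusted p = 7.8e-06) and -1.0 (adjusted p = 0.00082), so probes of this gene disagreed in direction. Endoplasmic reticulum folding and stress genes had 11 rises and 12 falls among 30 (median -0.31). P4hb, a protein disulfide isomerase, rose by 1.30, and Sec61b, a subunit of the translocation channel, by 1.41. The 3 largest falls were of stress response genes: Ppp1r15a, which restores translation after stress, fell by 2.89, Atf4, a transcription factor of the integrated stress response, by 1.84, and Trib3, an Atf4 target, by 1.70. The ER stress element lay in 9 of 27 promoters of this list (33.3%), against 0.119% of all. Chaperones had 6 rises and 6 falls among 25, also near the shares over all genes, with a median of 0.04 that was -0.22 after quantile normalization. There were 3 rises without E2 24 h replicate 1 or E2 2 h replicate 1, and 2 falls without E2 2 h replicate 2 or 3. Hspe1, a mitochondrial cochaperonin, rose by 0.87, and Hsph1, a relative of HSP70, fell by 1.54.

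Secretory products of the luminal and glandular epithelium rose, with wide spread between arrays. Of 27 tested, 15 rose and 2 fell (median 1.33), and mean levels were 1.87 to 2.14 at E2 24 h, 0.40 to 0.84 at E2 2 h and 0.35 to 0.77 with vehicle. Muc1, a cell surface mucin, had 0.47, -0.36 and 0.79 at E2 24 h, -2.95, -2.63 and -2.81 at E2 2 h, and -2.66, -3.28 and -1.41 with vehicle, a rise of 3.09 ± 0.45 (8.52-fold, adjusted p = 0.00011). Lcn2, an iron-binding antimicrobial protein, had 1.00, 1.25 and 2.65 at E2 24 h, -1.81, -0.69 and -1.32 at E2 2 h, and -1.46, -1.54 and -0.90 with vehicle. It rose by 2.91 ± 0.87 (adjusted p = 0.014), and by 2.40 with an adjusted p of 0.058 without E2 24 h replicate 3. Ltf, lactoferrin, was not called, with 3.58, 4.30 and 5.72 at E2 24 h, 3.19, 2.20 and 2.23 at E2 2 h, and 3.02, 2.53 and 4.77 with vehicle (2.00 ± 0.93, adjusted p = 0.088). The times did not overlap, but 1 vehicle array lay among those of 24 h. Complement C3 differed by 1.00 (adjusted p = 0.086), also short of a call.

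Sprr2d and Sprr2f, small proline-rich proteins of the epithelial surface, rose by 4.61 and 4.21, though members of this family are alike enough to share signal. At 2 h, 1 of 3 arrays was well above background for Sprr2d. Wfdc18, a whey acidic protein relative, rose by 3.55. Both falls were of aquaporins, which are water channels: Aqp8 fell by 5.10 ± 0.87 (adjusted p = 0.00035) and Aqp5 by 2.45 ± 0.47 (adjusted p = 0.00085). Aqp8 had -2.48, -3.69 and -4.03 at E2 24 h, 1.32, 1.68 and 2.10 at E2 2 h, and -4.64, -4.35 and -4.36 with vehicle. Its 24 h arrays remained above vehicle, far below the 2 h arrays. Among epithelial keratins, junction genes and transcription factors, 9 of 24 rose and 2 fell (median 0.71), with 1 fall without E2 24 h replicate 1 or 2 or E2 2 h replicate 2 or 3. Krt8, a simple epithelial keratin, rose by 1.44 and Krt17, a keratin of stressed epithelia, fell by 1.43.

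Collagens and other matrix genes had 20 rises and 5 falls among 36 (median 0.65). Col1a1 had 7.16, 7.06 and 6.62 at E2 24 h, 4.79, 3.38 and 3.87 at E2 2 h, and 4.59, 4.36 and 4.55 with vehicle, a rise of 2.93 ± 0.29 (adjusted p = 7.3e-06). Col1a2, the other chain of type I collagen, rose by 2.39 and Col3a1, type III collagen, by 2.18. Thbs1, thrombospondin, fell by 2.34, and Lamb1, a laminin chain, by 1.57. Matrix proteases and inhibitors had 6 rises and 6 falls among 19 (median -0.13), with 3 rises without E2 2 h replicate 3. Over all genes, 30.2% were higher and 22.9% lower. Timp1, a protease inhibitor, rose by 1.31 and its relative Timp3 fell by 2.18. The protease Adamts1 fell by 2.39.

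Clock genes mostly fell. Of 19 tested, 13 fell and 2 rose (median -0.81). Per2 and Cry1, repressors of the clock, fell by 2.99 and 2.62, and Nfil3, a bZIP repressor, by 3.51. Dbp, the bZIP activator that opposes Nfil3, and Nr1d1, a nuclear receptor repressor, rose by 1.34 and 1.13. Other probes of Nr1d1 gave 0.83 (adjusted p = 0.0044) and 0.16 (adjusted p = 0.67). Per2 had -1.37, -0.73 and -0.94 at E2 24 h, 2.03, 2.07 and 1.82 at E2 2 h, and 0.47, 0.12 and -0.11 with vehicle, so the times lay on opposite sides of vehicle. The sources used here do not give the hour of day at collection, so time after estradiol and time of day cannot be told apart.

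Wnt, hedgehog and homeobox genes had 8 rises and 8 falls among 31, with a median of -0.07 that was 0.01 with another background correction. These counts lay near the shares over all genes, 30.2% higher and 22.9% lower. Wnt4, a Wnt ligand, fell by 4.04, Axin2, a feedback target of Wnt signalling, by 2.61, and Ihh, Indian hedgehog of the epithelium, by 2.18. Hoxa11, a homeobox factor of the stroma, rose by 1.62, Nr2f2, the stromal receptor COUP-TFII, by 1.59, and the Wnt receptor Fzd1 by 1.47. Nr2f2 had 3.64, 3.60 and 3.23 at E2 24 h, 1.91, 1.91 and 1.88 at E2 2 h, and 3.42, 3.68 and 3.81 with vehicle, so the 24 h arrays overlapped vehicle and the 2 h arrays lay below. In the BCL2 family and related genes, 9 of 24 rose and 9 fell (median 0.05). The proapoptotic members Bmf and Bad rose by 3.51 and 2.10, while Bcl2, which protects cells, fell by 1.54 and Bcl2l11, the proapoptotic BIM, by 1.30. Other probes of Bcl2l11 gave -0.05 (adjusted p = 0.84) and -0.93 (adjusted p = 0.0049). Bmf had 3.11, 3.11 and 3.06 at E2 24 h, 0.21, -0.82 and -0.63 at E2 2 h, and 3.22, 3.22 and 3.37 with vehicle, so its 24 h level was just under that of vehicle.

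Interferon-response genes had 16 rises and 1 fall among 28 (median 0.87). Median differences from vehicle were -0.03 at 24 h and -0.77 at 2 h. There were 10 rises without E2 24 h replicate 3 or without E2 2 h replicate 2. The fall, Irgm1, a GTPase of cell defence, was -0.64 (adjusted p = 0.038) and lost its call without E2 24 h replicate 1 or 2 or E2 2 h replicate 1 or 2. The mean level ran from 0.46 to 1.34 over the E2 24 h arrays, against -0.10 to 0.15 at E2 2 h and 0.64 to 1.08 with vehicle. Ifit3 and Oas1a, antiviral effectors, rose by 1.84 and 1.68. Ifit3 had 0.45, 0.14 and 1.52 at E2 24 h, -1.35, -0.71 and -1.34 at E2 2 h, and 1.54, 0.17 and 1.38 with vehicle, with overlap of 24 h and vehicle.

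Markers of the tissue and of its cell types were read beside these groups. Uterine tissue markers had 8 rises and 3 falls among 14 (median 0.88), and their mean level was 3.64 to 3.73 at E2 24 h, 3.12 to 3.26 at E2 2 h and 3.39 to 3.51 with vehicle, so the defining markers of the labelled tissue were present at both times. Smooth muscle markers had 9 rises among 15 (median 0.67; 5 rises and 0.29 after quantile normalization), with Actg2, an actin of smooth muscle, up by 1.58 and Oxtr, the oxytocin receptor, down by 4.29. Endothelial markers had 1 rise and 4 falls among 15 (median -0.17), with Kdr, a VEGF receptor, down by 1.05. Macrophage markers had 4 rises and 0 falls among 17 (median 0.29; 2 rises without E2 2 h replicate 2), and 1 of 12 tested markers of granulocytes and mast cells fell (Kit, by 1.99). Mean levels of that granulocyte list were -2.91 to -2.05 at E2 24 h, -3.16 to -2.35 at E2 2 h and -2.58 to -1.79 with vehicle. Among 19 lymphocyte markers 1 rose and 2 fell. The count of falls was 0 without E2 24 h replicate 1 or E2 2 h replicate 1, 4 without E2 2 h replicate 2 and 8 without E2 24 h replicate 3. Adipocyte markers spread widely within groups, from -1.69 to 1.21 at E2 24 h, -0.15 to 1.76 at E2 2 h and -1.27 to 2.10 with vehicle, and 1 of 12 was called lower. This was Ucp1, the uncoupling protein of brown fat, which was not well above background at 24 h. Its bound on the processed signal was 1.87-fold lower. With normexp background correction its difference was -0.15 (adjusted p = 0.56), smaller than that bound. The part of cell composition in the gene groups above was not tested.

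Arrays were spread over 6 slides and 3 scan days. The E2 24 h arrays lay on 3 slides, and 1 slide held E2 24 h replicate 2 with E2 2 h replicates 2 and 3. Within that slide, which holds a single 24 h array and so gives differences but no test of that time's spread, the median difference was 2.07 for mitotic, 0.87 for replication and -3.10 for immediate early genes. It was 1.00 for sterol, 0.99 for oxidative phosphorylation and 1.64 for luminal genes. With slide as a fixed term the counts were 42 for mitosis, 32 for replication and 24 falls for immediate early genes. Within the scan day that held 2 arrays of each time, in a fit with 2 residual degrees of freedom, 50 mitotic and 37 replication genes rose, with medians of 1.92 and 0.86, and 24 immediate early genes fell (-3.08).

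The time difference with estradiol was then set against that with estriol, a weaker oestrogen that carries an additional hydroxyl group; the arrays of these time differences are all separate. Across 30202 probes they correlated at 0.789 (Pearson), over probes that are not independent and that share array design and slides. Of the E2 calls, 66.6% were called in the same direction with E3, which is 71.7% of the E3 calls, and 218 probes were called in opposite directions. The difference between the time differences was itself called for 1536 probes (5.09%), 922 more positive with E2 (3.05%) and 614 more negative (2.03%), and for 5.53% with 1 probe a gene.

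Immediate early genes had like medians with E2 (-3.0) and E3 (-2.96), and 1 of 25 differed. This was Jun, an AP-1 subunit chosen here after its values were seen, with time differences of -2.12 with E2 and -1.26 with E3 (adjusted p of the difference 0.011). Luminal genes had medians of 1.33 and 1.36, and 1 of 27 differed: Slpi, a protease inhibitor, also named after its values were seen, with 0.05 and 1.85 (adjusted p = 0.029). Replication genes had 39 of 52 with a called difference, all more positive with E2, and medians of 0.81 with E2 and -0.21 with E3. For Tk1 the time difference was 2.75 with E2 and 0.57 with E3. Sterol genes had 19 of 24 called and medians of 1.12 and -0.50, with Mvk at 2.70 with E2 and 1.06 with E3. Proteasome subunits had 12 of 31 called (0.66 and 0.04) and repair genes 11 of 28 (0.87 and 0.13). Mitotic genes had medians of 1.84 and 0.79, and 7 of 53 were called.

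**Figure D4:**
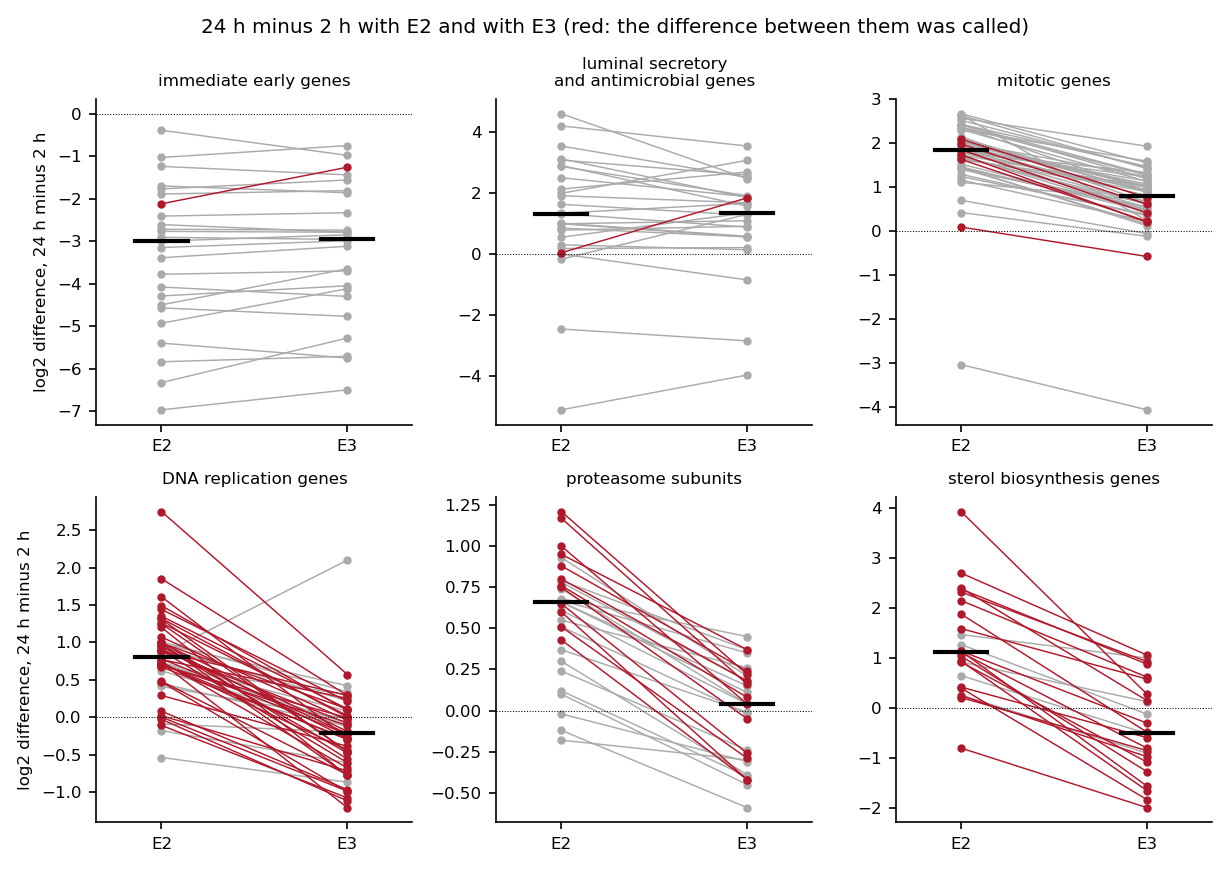
Log2 difference of 24 h minus 2 h with E2 (left of each pair) and with E3 (right), for the members of 6 gene lists, 1 line a gene. Red lines join genes whose difference between E2 and E3 was called, and black bars are list medians. Immediate early and luminal lists show like medians, while replication (0.81 and -0.21) and sterol genes (1.12 and -0.50) separate.

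These counts moved with the terms of the fit and with the arrays used, and the cause was not tested. E2 and E3 arrays of the same time never shared a slide. The fit with slide as a fixed term used the 12 treated arrays and left 4 residual degrees of freedom, against 10 in the main fit. With slide as a fixed term, 0 of the 39 replication genes and 0 of the 19 sterol genes stayed called, and the mitotic, proteasome and repair counts were also 0, although the medians of the replication and sterol differences were 1.29 and 1.63 with the term and 1.03 and 1.47 without it. With scan day as a term, 13 replication and 6 sterol genes were called, with medians of 0.97 and 1.39. Within the scan day that held 2 arrays of each of the 4 groups, 19 and 10 were called with the same medians. Leaving out 1 array gave 27 to 41 replication genes. For sterol genes it gave 8 without E3 2 h replicate 3, 9 without E2 2 h replicate 1, 10 without E2 2 h replicate 3 or E2 24 h replicate 2, and 12 without E3 2 h replicate 2. The mitotic count was 0 without E3 2 h replicate 3 or E2 2 h replicate 3 and 40 without E3 24 h replicate 1, with 1 to 3 for most others. The proteasome count ran from 2 without E3 2 h replicate 3 to 21 without E3 24 h replicate 2, and the repair count fell to 4 without E3 2 h replicate 3. No slide allows a direct comparison of E2 with E3 at the same time, so slide and hormone are separated only across slides. The fit with slide as a fixed term called 200 probes for the E3 time difference, against 14840 in the main fit. The part of slide in the differences between E2 and E3 remains uncertain.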

How the data were processed

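RNA of 15 uterus samples was hybridised to one-colour arrays, 3 for each of 5 groups taken from the labels. The files deposited hold each spot's intensity, and per the file headers it is the signal processed by Feature Extraction 9.5.3.1 (9.5 in the submitters' processing notes), on a linear scale, background-subtracted and detrended within the array but not normalized between arrays. The deposited value table of the series held the same intensity values. Probe positions are on mm7, per the file headers. Of 45018 spots, 43379 were no controls, and 950 flagged spots were left out, with 53 probes lost. Each of 41174 probes was averaged, taken as log2, and reduced by the array's 75th percentile. Probes well above background on all 3 arrays of E2 24 h or E2 2 h were tested with limma 3.58.1 in R 4.3.3 (lmFit and eBayes over all 15 arrays, Benjamini-Hochberg adjustment). Names came from RefSeq: 22951 probes matched by accession, 131 by another accession, 6582 by symbol and 3073 by synonym, and 8437 kept the file's name.

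The genes named were 12 rises and 12 falls, the largest by fitted difference of called probes with a symbol, with the 3 arrays of one time above those of the other and the brighter group well above background. Up to 4 members a list in each direction, and 18 genes in every case, could be added. Some genes that the rule gives are left out of the text. Each list gene was read from its brightest probe over the 6 arrays. Promoters printed are of list members that hold the motif and changed most, at most 2 a motif. Genes on chromosome 18, among them Cdc25c, were left out of that choice. The members, lists and tests were chosen with earlier results of these data known. Alternatives changed the scaling, background correction, filters, samples, variance model, slide, scan day, replicate block and single arrays; the pipeline was tested on simulated data. Replicate numbers did not pair the samples.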

Additional observations from a re-analysis of the deposited data

Results flagged for a closer look

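For 28 named genes the time difference with E2 differed from that with E3 by a test of the difference itself (adjusted p under 0.05, limma), so their values are given as log2 E2 time difference minus E3 time difference. Positive differences in DNA replication and G1/S genes were 1.63 for Ccne1, 1.77 for Mcm5, 0.99 for Pcna, 1.58 for E2f1, 0.94 for Cks1b, 2.19 for Tk1, 1.57 for Gmnn and 1.89 for Mcm10. In sterol and fatty acid synthesis they were 1.65 for Mvk, 2.25 for Fdps and 0.96 for Fads2. Among proteasome subunits they were 0.99 for Psmd13, 1.01 for Psmb3 and 0.96 for Psmd14. Energy and serine metabolism gave 0.89 for Tpi1, 1.19 for Atp5g1, 0.59 for Ndufa4 and 1.09 for Psat1. The chaperones Hspe1 and Dnajb1 gave 0.78 and 0.67, the inhibitor Timp1 1.12 and Ankrd22 2.36. Negative differences were -2.28 for Kcnf1, -0.91 for Cdkn1c, -1.07 for Bcl2, -1.16 for Bcl2l11, -0.86 for Jun and -1.80 for Slpi.

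With slide as a fixed term, 27 of the 28 kept their sign and 0 were called (limma, smallest adjusted p 0.31). With scan day as a term 28 kept their sign and 11 were called, and within the scan day that held all 4 oestrogen groups 28 kept it and 14 were called (smallest adjusted p 0.023). No slide held E2 and E3 arrays of the same time, so slide and hormone cannot be told apart within a slide in these differences.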

How the results depend on the processing

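For E2 24 h minus E2 2 h, 15983 probes were called. With 1 probe a gene the calls numbered 10575, of which 4584 were lower, and with a 2-fold minimum 7149. Leaving out each E2 array in turn gave 13552 to 15091 calls and each E3 array 15571 to 16977. Array weights gave 19907, slide as a fixed term 11856, scan day as a term 14884, and normexp background correction 14632. Of 179 named gene results that were called, 130 kept direction and call under all 23 alternatives and 0 reversed; slide as a fixed term ended 29 calls. Igf1 and Pcna, not called, changed sign around 0. For Igf1 the value was 0.05 with the array median as the scale, 0.16 with slide as a fixed term, 0.01 with slide as a random block, 0.16 within the slide, 0.03 with scan day, 0.01 within the scan day and -0.11 (without E2 24 h replicate 2) to 0.05 (without E2 24 h replicate 3) in leave-one-out fits. For Pcna it was 0.07 with the array median, 0.01 within the scan day and -0.04 (without E2 2 h replicate 2) to 0.03 (without E2 24 h replicate 2) in such fits.

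The difference of the E2 and E3 time differences was less stable, with 1536 probes called. It was 1 with slide as a fixed term, 188 with scan day, 810 with the 12 treated arrays, 4071 with array weights, and 689 within the scan day that held all 4 groups, an alternative chosen after seeing the data. Leaving out each E2 or E3 array gave 529 (E3 2 h replicate 3) to 2958 (E3 24 h replicate 2). The cause was not tested.

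With the replicate number as a replicate block 15558 probes were called (8105 higher and 7453 lower). Same-numbered arrays deviated together by correlations of 0.138, 0.089 and 0.115, and each array correlated best with its own number, a hint from the data and not the design. Probes near background on one side have only a bound.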
